A study of Drosophila melanogaster with 48 samples.

Results

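The regions described here are 755 places at the ends of Drosophila melanogaster genes where CUT&RUN with an antibody against Zelda (Zld) gave a peak in the larval brain condition named brat and no overlapping peak in the condition named UAS-HA-Zld. They are called brat-only gene-end peaks below. A peak was taken when it lay on arm 2L, 2R, 3L, 3R or X of the dm6 build, shared no base with any UAS-HA-Zld peak, and had its midpoint no more than 500 bp from one of the 2 ends of a RefSeq gene. They are 755 of the 7507 brat peaks on those 5 arms, and 755 of the 3283 that lie at a gene end. Of all 7507 brat peaks on the 5 arms, 1610 or 21.4% overlapped no UAS-HA-Zld peak, and of the 3283 at gene ends the share was 23.0%. The members were thus chosen by measured values, the presence of a call in one list and its absence in the other, and these 2 shares are the result of that choice. The annotation used gives no strand, so a gene end may be the start or the finish of transcription.

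The series holds 48 CUT&RUN samples, 42 from the embryo-derived S2 cell line and 6 from brains of third-instar larvae. Of the 6, 4 used anti-Zld, with 2 replicates in each of the UAS-HA-Zld and brat conditions, and 2 used IgG, labelled brat11/bratDF, which were not analysed here. Each replicate used 50 brains, from animals reared at 18°C and then kept at 33°C for 24 h, and the cell type label is type II neuroblast. All 4 anti-Zld samples, in both conditions, carry 1 genotype label, which names brat11/DF and Tub-Gal80ts and, with them, UAS-HA-Zld and WorGal4, so which list belongs to which condition rests on the sample titles. That genotype combines alleles of brat, a temperature-sensitive block of Gal4, and an HA-tagged Zld driven by WorGal4, a line active in neuroblasts. Brains were dissected whole, and what other cells of each brain added to the signal was not tested. There is 1 peak list per condition, so no value below has a spread over replicates and no test between conditions could be made. Intervals are Wilson 95% intervals and cover counting error only.

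Zld is a zinc-finger pioneer factor, a protein that binds its sites in closed chromatin and helps open them, and it is best known for the first genes transcribed in the embryo. Brat is a translational repressor of the TRIM-NHL family. When it is lost, the intermediate progenitors made by type II neuroblasts turn back into neuroblasts, so that brains fill with these stem cells. CUT&RUN cuts and releases DNA around an antibody-bound protein, so that sequenced DNA piles up where the protein was. Many housekeeping genes, those used by every cell, have promoters that stay open, and in Drosophila many of these lie back to back with the promoter of a neighbour.

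The brat-only gene-end peaks were weak, narrow and close to the gene end when set beside the 2528 brat peaks at gene ends that did overlap a UAS-HA-Zld peak, called shared below. Their median fold enrichment, the authors' ratio of pileup to local background, was 2.97 (quartiles 2.31 and 4.10), against 4.72 (quartiles 3.07 and 8.08) for shared peaks. Their strongest summit had a median of 118 fragments over a background of 37.1 fragments, against 225 over 45.7 in shared peaks. Both numbers of fragments were solved from the deposited fold and p-value. The median width was 396 bp, against 646 bp. A single summit was called in 61.1% of brat-only peaks (57.5% to 64.5%), against 46.8% of shared ones (44.8% to 48.7%). In all, 129 brat-only peaks (17.1%) reached 5-fold and 31 reached 10-fold, against 1176 (46.5%) and 453 shared peaks. The 654 UAS-HA-Zld peaks at gene ends with no brat peak had a median fold of 2.47 and a median width of 391 bp in their own list, so peaks found in 1 list alone were weak in both lists. Weak peaks are the ones nearest a caller's threshold, and the UAS-HA-Zld list has more fragments, with a median pileup over all its summits of 208 against 147 in the brat list. What the depth of the lists added to these differences was not tested.

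**Figure D1:**
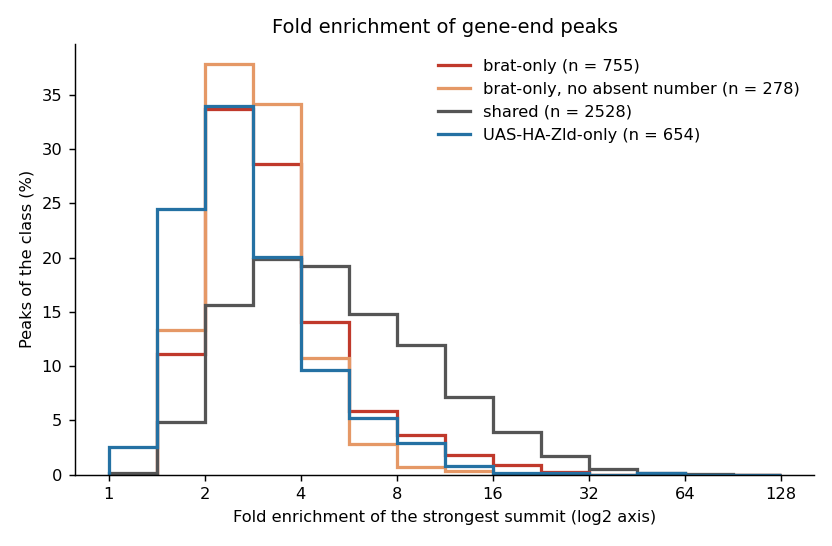
Fold enrichment of the strongest summit (x, log2 axis) against the share of each class of gene-end peaks (y, percent), for brat-only peaks, those of them with no absent UAS-HA-Zld number, shared peaks and UAS-HA-Zld-only peaks, whose folds come from the UAS-HA-Zld list. The 3 classes found in 1 list peak between 2 and 4 fold, and shared peaks reach higher, with a median of 4.72.

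One property of the lists bears on every member. The authors' caller numbers its peaks along the genome, and 2191 of 11256 numbers (19.5%) are absent from the UAS-HA-Zld list, as are 1846 of 9490 (19.5%) from the brat list. A brat peak that lies between 2 UAS-HA-Zld peaks whose numbers skip 1 or more may have had a UAS-HA-Zld counterpart that is not among the peaks analysed here. This holds for 476 members. A further member lies past the last UAS-HA-Zld peak of X, and the remaining 278 (36.8%, 33.5% to 40.3%) have neighbours with consecutive numbers. Of the length between UAS-HA-Zld peaks on the 5 arms, 45.6% has an absent number. The share of members with an absent number was 55.0%, 58.3%, 57.0% and 62.9% in the 4 weaker of 5 equal classes of the members by −log10 q, and 82.8% in the strongest class (125 of 151). The 23 strongest members all had one. What the absent numbers stood for was not tested, and results are given for all 755 and for the 278.

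The share of peaks with no UAS-HA-Zld peak was lower the stronger the brat peak was. Among the 3283 brat gene-end peaks split into 5 equal strength classes by −log10 q, 300 of 657 (45.7%) in the weakest class were brat-only, then 34.8%, 19.8% and 11.1%, and 24 of 657 (3.65%) in the strongest. With absent numbers left out the brat-only counts were 130, 97, 37, 13 and 1, in the same order. Only the prohibitin gene Phb1 thus had a brat-only peak of the strongest class with no absent number beside it. By arm, the brat-only share was 23.9% on 2L, 25.6% on 2R, 24.6% on 3L, 19.4% on 3R and 21.6% on X, with overlapping intervals.

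**Figure D2:**
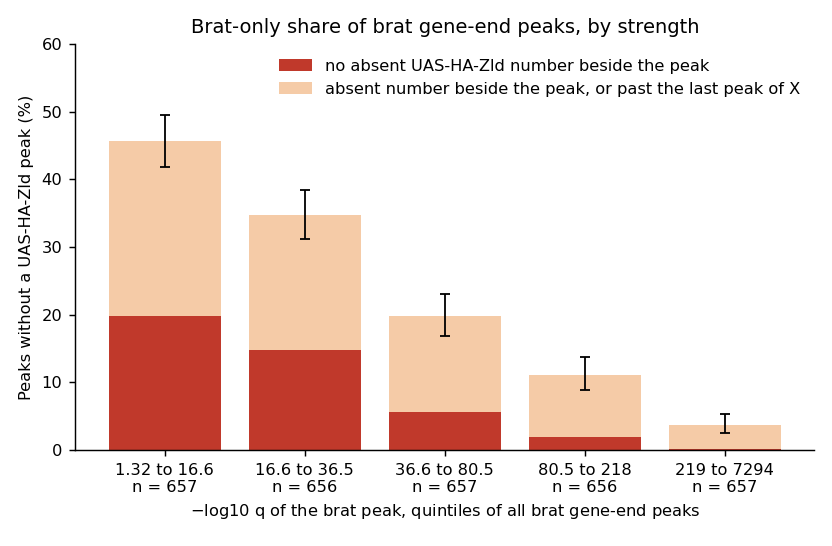
Share of brat gene-end peaks with no overlapping UAS-HA-Zld peak (y, percent) in 5 equal classes of −log10 q (x, weakest at left), with the part that has no absent UAS-HA-Zld number in dark red, and Wilson 95% intervals for the whole bar. The share is 45.7% in the weakest class and 3.65% in the strongest, where 1 peak has no absent number.

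The strongest brat-only gene-end peaks lay at genes of many functions, and the peaks named next have an absent UAS-HA-Zld number beside them, except that at Phb1. The highest −log10 q, 998, was at enok, a histone acetyltransferase of the MYST family, at chr2R:24099096-24099617, with 1012 fragments over a background of 39.9 and a fold of 24.8. The next was at eIF2beta, a subunit of the initiation factor that brings the first tRNA to the ribosome, at chr3L:12526188-12526951, with 818 fragments and a fold of 18.9. The highest fold of all members, 27.0, was at Cnot4, a ubiquitin ligase tied to the CCR4-NOT deadenylase, at chr2L:10396538-10397440, with 636 fragments over 22.6. Then came MAN1, a protein of the inner nuclear membrane, with a fold of 14.8, and the calcium-binding Alg-2 with 18.0. Next were rl, the fly ERK kinase, with a fold of 20.6, and l(3)80Fj with 20.1. They were followed by the stress-activated factor Atf6 with a fold of 20.0 and the histone H4 methyltransferase Set8 with 17.3. The other 6 of the strongest 15 were CG46339, CG17486, the glucuronyltransferase gene GlcAT-P, the transcription cyclin CycK, the adherens junction gene alpha-Cat and the RNA-binding gene nonA, with folds between 13.0 and 16.3. Beyond them the highest folds were 15.5 at gus, 15.2 at me31B, an RNA helicase that represses translation, 15.1 at mir-4942 and the complex I gene ND-MLRQ, which share the peak, 13.3 at RpS2 and 13.0 at Phb1.

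Among the 278 peaks with no absent number the folds were lower, with a median of 2.81 (quartiles 2.22 and 3.42) and 21 at 5-fold or more. The strongest was at Phb1, a subunit of the mitochondrial prohibitin ring, and at its neighbour l(2)37Cb, at chr2L:19123437-19123880, with 305 fragments over 22.6 and a fold of 13.0. The nearest UAS-HA-Zld peak was 7749 bp away. Next was Cdk4, the cyclin D partner that promotes growth and division, at chr2R:16579391-16580038, with 335 fragments over 34.2 and a fold of 9.54. Here a UAS-HA-Zld peak lay 311 bp away. Kul, a gene of an ADAM metalloprotease, shared a peak with CG18731 at a fold of 8.25. The nucleolar GTPase gene Non1 had a fold of 7.70, with a UAS-HA-Zld peak 378 bp away. The corazonin receptor gene CrzR had a fold of 6.88 and stood 21984 bp from any UAS-HA-Zld peak. The phospholipase gene Pld had 6.99, and the complex III gene UQCR-C1, with its neighbour CycC, had 6.42. Ice1, a subunit of the complex that aids transcription of small nuclear RNAs, had 5.26 and shared its peak with vir. The wide peak at lncRNA:alphagamma-element:CR32865, 5085 bp long, had 5.10. The hypoxia factor gene sima had 5.24 in a peak at the ends of 3 genes.

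**Figure D3:**
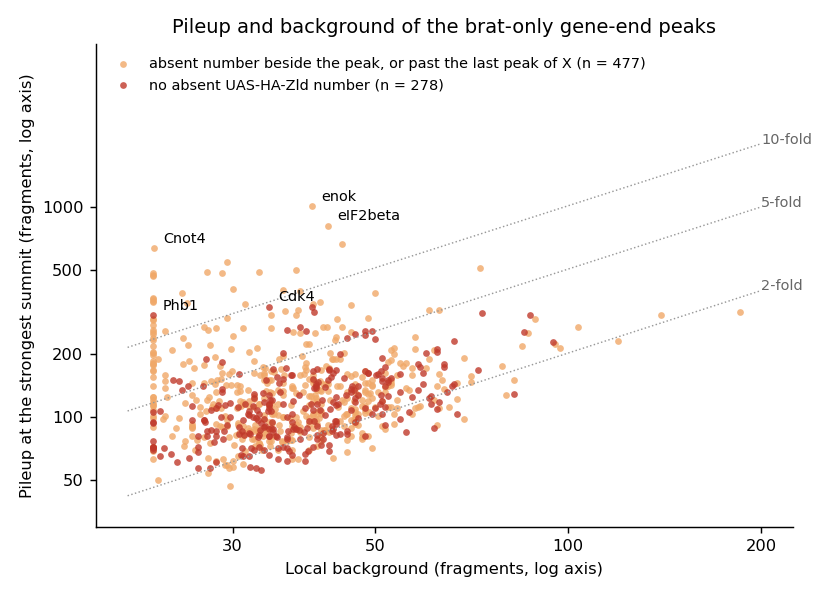
Pileup at the strongest summit (y, fragments, log axis) against local background (x, fragments, log axis) for all 755 brat-only gene-end peaks, coloured by whether an absent UAS-HA-Zld number stands beside the peak, with dotted lines at 2, 5 and 10 fold. The peaks above 10-fold have an absent number except that at Phb1, and Cdk4 lies just under the 10-fold line.

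The brat-only peaks sat nearer to gene ends than shared peaks did. The median distance between midpoint and nearest end was 161.5 bp, and 151 bp in the 278 with no absent number, against 204.8 bp for shared peaks and 206.2 bp for UAS-HA-Zld-only peaks. Within 200 bp of an end lay 60.9% (57.4% to 64.3%) of brat-only peaks and 64.0% (58.2% to 69.4%) of the 278. The share was 48.9% (46.9% to 50.8%) in shared peaks and 48.2% (44.4% to 52.0%) in UAS-HA-Zld-only peaks. All classes but UAS-HA-Zld-only were most frequent between 100 and 150 bp, a bin that held 21.1% of brat-only peaks, 15.3% of shared peaks and 13.0% of UAS-HA-Zld-only peaks. Wider peaks have midpoints that can fall farther from the end. With the strongest summit in place of the midpoint the share within 200 bp was 72.1% in brat-only peaks, only 4.53 percentage points above that of shared peaks instead of 12.1. In the weakest strength class the share within 200 bp was 59.7% in brat-only and 60.5% in shared peaks. In the other classes, in rising order of strength, it was 66.2%, 57.7%, 60.3% and 45.8% in brat-only peaks. Shared peaks had 54.4%, 48.6%, 44.3% and 43.0%. The intervals were apart only at 66.2% against 54.4% and at 60.3% against 44.3%, so the difference did not grow steadily with strength. Beside the 500 bp limit, the last members inside were lncRNA:CR43287 at 498 bp, ken at 496 bp and RpL18 at 494 bp. The first brat-only peaks outside were at CG4456 at 500.5 bp, foxo at 501 bp and lt at 502.5 bp.

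**Figure D4:**
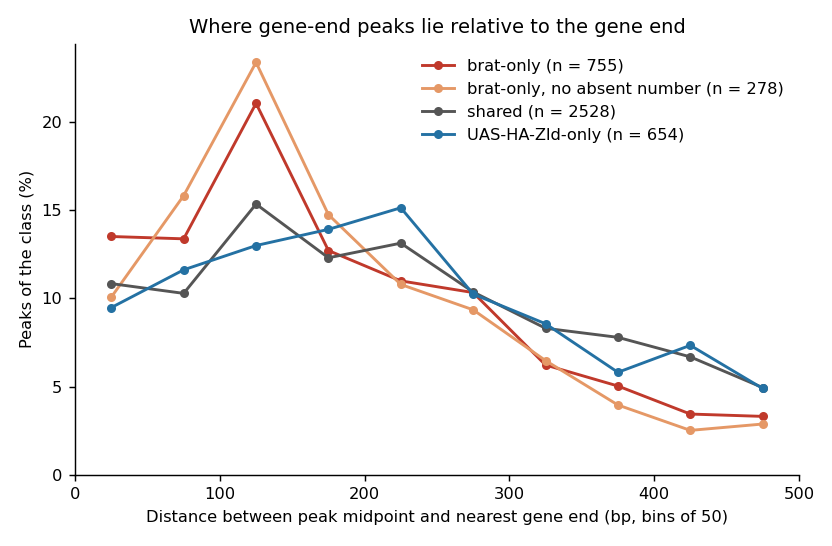
Distance between peak midpoint and nearest gene end (x, bp, bins of 50) against the share of each class (y, percent). Brat-only peaks, with and without those beside an absent number, have their highest point between 100 and 150 bp, at 23.4% for the 278 and 21.1% for all 755, above shared peaks at 15.3%.

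The brat-only peaks more often stood where 2 or more genes end together, the layout of back-to-back promoters and of close neighbours. Such ends within 500 bp were found for 301 of 755 (39.9%, 36.4% to 43.4%), and for 114 of the 278 (41.0%, 35.4% to 46.9%). The share was 31.3% (29.6% to 33.2%) in shared peaks and 31.5% (28.1% to 35.2%) in UAS-HA-Zld-only peaks. Counting protein-coding genes only, the shares were 35.0% in brat-only, 24.8% in shared and 25.8% in UAS-HA-Zld-only peaks. Turned round, 20.7% (19.1% to 22.5%) of the brat peaks at 1 gene's end were brat-only, against 27.4% (24.7% to 30.4%) of those at the ends of 2 genes. Strength moves with this trait. Within the strength classes, weakest to strongest, the share with ends of 2 or more genes was 38.7%, 41.7%, 44.6%, 39.7% and 12.5% in brat-only peaks. In shared peaks it was 36.7%, 36.4%, 31.3%, 32.8% and 23.5%. Brat-only peaks were therefore above shared ones in 4 of 5 classes, with intervals that did not overlap in the middle class alone, and below them in the strongest class, which holds 24 brat-only peaks. Whether these gene pairs are divergent could not be read without strand.

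The genes beside the brat-only peaks were mostly protein-coding and shorter than those beside shared peaks. The nearest gene was protein-coding in 669 of 755 (88.6%, 86.1% to 90.7%), against 84.4% of shared and 78.6% of UAS-HA-Zld-only peaks. It was a long non-coding RNA gene in 37 (4.90%, 3.58% to 6.68%), against 10.4% (9.27% to 11.7%) of shared and 16.7% (14.0% to 19.7%) of UAS-HA-Zld-only peaks. Brat-only peaks were also below shared ones in each strength class, with 6.0%, 4.39%, 3.85%, 5.48% and 0.0% in brat-only peaks and 9.52%, 9.11%, 12.0%, 9.43% and 11.4% in shared ones. The intervals overlapped in 4 of the 5 classes and were apart in the middle one. The nearest gene had a median length of 3091 bp, against 4026 bp for shared and 1753 bp for UAS-HA-Zld-only peaks. Of the small RNA genes, 17 of 290 tRNA genes (5.86%) had a brat-only peak at an end, 27 a shared one, and for 2 a peak stood in the UAS-HA-Zld list alone. Likewise, 19 of 268 snoRNA genes (7.09%) had a brat-only peak, 28 a shared one, and 11 had one in the UAS-HA-Zld list alone. Both brat-only shares are near the 6.78% of protein-coding genes. Such genes stand in clusters or inside hosts, and 1 peak can serve several.

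Housekeeping genes had a brat-only peak at an end more often than protein-coding genes as a whole. Of the 13842 protein-coding genes on the 5 arms, 939 or 6.78% had a brat-only peak at an end, 2760 or 19.9% a shared peak and 687 or 4.96% a UAS-HA-Zld-only peak. With no absent number beside the peak, 357 genes or 2.58% had a brat-only peak. Against these backgrounds, the 581 genes of 13 housekeeping lists had a brat-only peak in 87 cases (15.0%, 12.3% to 18.1%), a shared peak in 176 (30.3%) and a UAS-HA-Zld-only peak in 35 (6.02%). With no absent number the brat-only count was 28 (4.82%, 3.36% to 6.88%). Another 9 lists, called specific here, held 123 genes. They cover neural cells, patterning and early embryos, and also Notch signalling and cell division, which are not confined to such cells or stages. Of these genes, 6 (4.88%, 2.25% to 10.2%) had a brat-only peak, 63 (51.2%) a shared peak and 18 (14.6%) a UAS-HA-Zld-only peak. The cell cycle list held 2 of the 6 and 9 of the 63. The share of brat gene-end peaks that were brat-only was 86 of 275 (31.3%, 26.1% to 37.0%) at ends of housekeeping genes alone. It was 6 of 73 (8.22%, 3.82% to 16.8%) at specific genes alone, beside the 23.0% for all. Counting only brat-only peaks with no absent number, the counts were 27 of 275 (9.82%, 6.84% to 13.9%) and 3 of 73 (4.11%, 1.41% to 11.4%). The same share for all brat gene-end peaks was 8.47%, which lies within the housekeeping interval. Brat-only peaks beside an absent number stay in these denominators, so each share is lower where there are more of them. Counted by peaks, 11.4% (9.32% to 13.9%) of brat-only peaks lay at an end of a housekeeping list gene, against 7.56% (6.59% to 8.65%) of shared and 5.50% (4.00% to 7.53%) of UAS-HA-Zld-only peaks. In the 278 with no absent number the share was 9.71% (6.76% to 13.8%), whose interval overlaps that of shared peaks. In each of the 5 strength classes the housekeeping share was higher in brat-only than in shared peaks, between 8.46% and 20.8% in the first and between 6.16% and 8.75% in the second, with overlapping intervals in each class. With absent numbers left out, brat-only peaks were above shared ones in the 3 weaker classes, and below them in the other two, which hold 13 and 1 such peaks. The lists were chosen with earlier results of these data known.

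**Figure D5:**
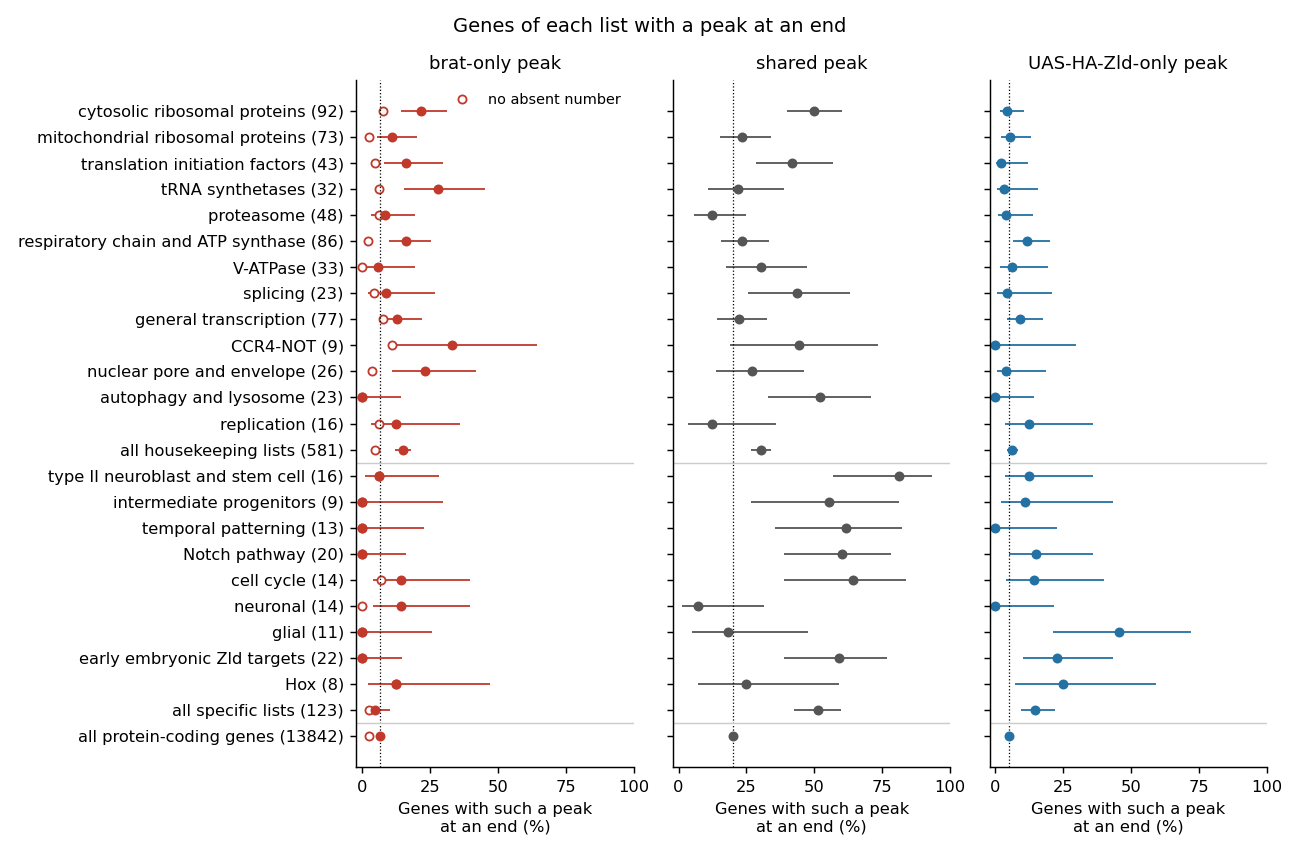
Share of the genes of each list (rows, number of genes in brackets) with a brat-only, shared or UAS-HA-Zld-only peak at an end (x, percent, Wilson 95% intervals), open circles showing brat-only peaks with no absent number and dotted lines the share of all protein-coding genes. The 13 housekeeping lists together reach 15.0% for brat-only peaks against 6.78% of all protein-coding genes, and the 9 specific lists together 4.88%.

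The translation apparatus gave the most housekeeping members. Of 92 cytosolic ribosomal protein genes, 20 (21.7%) had a brat-only peak, 7 of them with no absent number, 46 a shared and 4 a UAS-HA-Zld-only peak. Of their 74 brat gene-end peaks, 20 (27.0%, 18.2% to 38.1%) were brat-only, near the 23.0% of all brat gene-end peaks. RpS2 led with 351 fragments over 25.5 and a fold of 13.3, then RpS10b with a fold of 6.89 and RpL28 with 5.62, all beside absent numbers. RpL18, with 150 fragments over 33.9 and a fold of 4.33, RpL37A with 3.58 and RpS15Aa with 3.31 had none. The median fold of the 20 was 2.90 and the lowest 2.35, so nearly all were modest peaks. Of 32 tRNA synthetase genes, 9 (28.1%, 15.6% to 45.4%) had a brat-only peak and 7 a shared one, and 9 of their 16 brat gene-end peaks (56.2%, 33.2% to 76.9%) were brat-only. ArgRS had a fold of 9.11, LeuRS of 6.36 and MetRS of 4.35, beside absent numbers, and ValRS had 3.73 with none. Of 43 initiation factor genes, 7 (16.3%) had a brat-only peak, with eIF5 at a fold of 8.39 and eIF4B at 4.88 after eIF2beta. Of these 7 genes, 4 also had a shared peak at an end. Of the 26 brat gene-end peaks at initiation factor genes, 7 (26.9%, 13.7% to 46.1%) were brat-only, also near the 23.0%. Of 73 mitochondrial ribosomal protein genes, 8 had a brat-only peak, with mRpL23 at a fold of 6.43, mRpL28 at 6.09 and mRpS10 at 3.92, the last with no absent number. Of their 29 brat gene-end peaks, 9 (31.0%, 17.3% to 49.2%) were brat-only.

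In the other housekeeping lists the shares lay on both sides of the 6.78% of all protein-coding genes. Of 86 genes of the respiratory chain and ATP synthase, 14 (16.3%, 9.95% to 25.5%) had a brat-only peak, 2 of them with no absent number. ND-MLRQ had a fold of 15.1, UQCR-11 of 11.1 and UQCR-C1 of 6.42. UQCR-C2 and the proteasome gene Rpn12 share 1 peak of 3.47-fold with no absent number. In the list of general transcription genes, 10 of 77 (13.0%, 7.21% to 22.3%) had a brat-only peak, 6 of them with no absent number. The elongation factor gene TfIIS had a fold of 7.75, and the Mediator gene MED4 had 4.14. In the list of nuclear pore and envelope genes it was 6 of 26 (23.1%), in CCR4-NOT 3 of 9 (33.3%), and in replication 2 of 16 (12.5%) with Mcm6 at 2.73. In the proteasome it was 4 of 48 (8.33%), in splicing 2 of 23 (8.70%) with Prp8 at 3.43, and in the V-ATPase 2 of 33 (6.06%), all near the 6.78% of protein-coding genes. Of 23 autophagy and lysosome genes none had a brat-only peak (0.0% to 14.3%), and 12 had a shared one. The brat-only shares of the 13 lists lay between 0.0% and 33.3% of genes, and small lists have wide intervals.

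Genes of the type II neuroblast and intermediate progenitor lists mostly had shared peaks at their ends. In the neuronal and glial lists the share with a shared peak could not be told from that of all protein-coding genes. Of the 16 genes of type II neuroblasts and stem cells, 13 had a shared peak at an end and 1, the Sp-family factor gene btd, had a brat-only peak, with 97 fragments over 31.2, a fold of 3.04 and no absent number. That 1 of 16 (6.25%) is near the 6.78% of all protein-coding genes, and btd had a shared peak at an end too. In the lists of intermediate progenitors (9 genes), temporal patterning (13), the Notch pathway (20), glia (11) and early embryonic Zld targets (22), no gene had a brat-only peak. Shared peaks stood at 5, 8, 12, 2 and 13 of these genes, in the same order. For such short lists the upper interval limits of the brat-only share lay between 14.9% and 29.9%. All of them are above the 6.78% of all protein-coding genes. Of 14 cell cycle genes, Cdk4 and the mitotic kinase gene aurA, with a fold of 3.10, had a brat-only peak (14.3%, 4.01% to 39.9%). Of 14 neuronal genes, the synaptic genes nSyb with 2.06 and brp with 2.16 had one (14.3%, 4.01% to 39.9%), both beside absent numbers. A shared peak stood at 1 of the 14 neuronal genes (7.14%, 1.27% to 31.5%) and 2 of the 11 glial genes (18.2%, 5.14% to 47.7%). Both intervals hold the 19.9% of all protein-coding genes. Of 8 Hox genes, Ubx had a brat-only peak (12.5%, 2.24% to 47.1%), with a fold of 2.71 and no absent number. The intervals of the cell cycle, neuronal and Hox lists all hold the 6.78% of all protein-coding genes. Of 5 genes whose sequences the transgenes may carry, none had a brat-only peak and 4 had a shared one.

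Most genes with a brat-only peak had no UAS-HA-Zld peak anywhere along them. Of the 939 protein-coding genes, 741 (78.9%, 76.2% to 81.4%) had none within the gene and 500 bp to each side, 165 (17.6%) also held a shared peak and 64 (6.82%) also a UAS-HA-Zld-only peak. Of all 13842 protein-coding genes, most without a brat peak at an end, 69.6% had no UAS-HA-Zld peak and 10.2% a UAS-HA-Zld-only one. Of the 3614 with any brat peak at an end, which include the 939, 22.5% had no UAS-HA-Zld peak and 13.9% a UAS-HA-Zld-only one. Of the 2760 with a shared peak at an end, 16.2% also had a UAS-HA-Zld-only one. The rule asks for a brat peak without a UAS-HA-Zld peak over it, so a high share with none is in part built in. For the 357 genes with no absent number beside the brat-only peak, 262 (73.4%, 68.6% to 77.7%) had none. At 14 genes each list had an unmatched peak at an end, brat-only in one and UAS-HA-Zld-only in the other, a median of 1440 bp apart and within 500 bp at 3. At 4 of them, Srp54 of the signal recognition particle, SPARC, the antibacterial peptide gene CecC and the kinase gene lic, neither peak had an absent number beside it. Srp54 had a fold of 1.94 for its UAS-HA-Zld peak and of 3.37 for its brat peak, each in its own list.

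The distance to the nearest UAS-HA-Zld peak varied widely among the members. The median gap was 4361 bp (quartiles 1572 and 11754), and 3096 bp in the 278 with no absent number. In 84 members (11.1%) a UAS-HA-Zld peak lay within 500 bp, in 161 (21.3%) within 1 kb, and in 218 (28.9%) none lay within 10 kb. The members nearest to a match were at Fib, the gene of the nucleolar methyltransferase fibrillarin, with a gap of 134 bp and a fold of 5.92, at eEF1beta with 175 bp and at MED8 with 217 bp. The peaks just matched were at colt, with 47 bp shared, Srlp with 94 bp and brwl with 98 bp.

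Members stood both singly and in rows along the arms. In the order of all 7507 brat peaks along the arms, 488 of the 755 members had no other member next to them. There were 94 pairs and 21 triplets in a row, 2 rows of 5 and 1 of 6. How many would stand alone if members were scattered at random among these peaks was not tested. The counts therefore do not tell whether members are scattered or grouped. The row of 6 spans 54.6 kb at chr2R:9059953-9114527, with CG8197, Nadk2, snoRNA:Or-aca5, the snoRNA host gene Uhg4, Vang and Phax, and 1 of the 6 had no absent number. A row of 5 ran over 60.5 kb of 2R with enok at its edge. In 37 genes, 34 of them protein-coding, 2 or more members lay at the ends. The strongest were at Csk, a kinase that restrains Src, with folds of 8.41 and 3.20, and at Uhg4 with 8.66 and 1.42. CG9004 and mRpL23, which are neighbours, shared a pair with 6.43 and 2.55. CG9663 had 7.02 and 4.54, and Glg1 had 6.66 and 3.06.

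Near the centromeres the brat-only share was high. Within 1 Mb of the centromere-side end of an arm, 12 of 23 brat gene-end peaks (52.2%, 33.0% to 70.8%) were brat-only. The share was 11 of 33 (33.3%, 19.8% to 50.4%) between 1 and 2 Mb, 29.7% (24.5% to 35.6%) between 2 and 5 Mb, and 22.1% (20.6% to 23.6%) beyond 5 Mb. The 12 were led by l(3)80Fj, with 474 fragments over 22.6, then the mitochondrial import gene Tim23 with a fold of 11.7, Slmap with 10.8 and Myo81F with 10.6. Only 1 of the 12, at lncRNA:CR46268 with a fold of 4.03, had no absent number beside it. Brat-only peaks with no absent number were thus 1 of 23 here (4.35%, 0.772% to 21.0%), an interval that holds the 8.32% beyond 5 Mb. Both denominators keep the members beside an absent number, which lowers the share most where these are frequent.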

How the data were processed

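Peak lists of 4 anti-Zld brain samples, 2 per condition, were analysed, 1 list per condition. Per the submitters' processing notes, Bowtie2, MACS2, deepTools 3.5.1 and the build dm6 were used. How replicates were pooled, which control track was used and what filters were set are points not given in the sources used here. Each deposited narrowPeak row holds, per the authors' caller, an integer score, the fold enrichment (a ratio), both p-value and q-value as −log10, and the summit's offset. A peak is 1 distinct interval with the values of its summit of highest −log10 q. Pileup and background were solved from the fold and p under a Poisson model, and 100% of the pileups were whole numbers to a relative 0.0001. The lists held 16252 UAS-HA-Zld and 13826 brat summits covering 6.30 and 5.52 Mb, and the lowest backgrounds were 28.8 and 22.6 fragments. Lists were matched by at least 1 shared base with Python 3.11.15, pandas 2.3.3, numpy 2.4.6 and scipy 1.17.1. The steps were tested on simulated data. Genes came from the RefSeq table of the dm6 assembly, 17570 genes on the 5 arms. All symbols of the 23 gene lists were found, 1 under another symbol. In the counts over lists, a gene has a peak when its end lies within 500 bp of the midpoint.

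Named peaks are the 15 with the highest −log10 q, the next 5 by fold, up to 3 per gene list by strength, up to 5 genes with several members, and 3 peaks on each side of each threshold. A few genes beyond this rule, among them those with no absent number, were chosen after their values were seen. The members and lists were chosen with earlier results of these data known. Alternatives were stricter −log10 q, other matching and distance rules, equal list lengths, protein-coding genes only, arm 4, and absent numbers left out. Planned results on gene starts, strand pairs and motifs were not run, because they need strand or a genome sequence, which were not used here.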

Additional observations from a re-analysis of the deposited data

How the results depend on the processing

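None of the 4 differences from shared peaks changed direction under 12 alternatives. The number of brat-only gene-end peaks stayed within 1.5 times 755 under each alternative except those that left out peaks beside an absent number, which gave 278, or 208 with a −log10 q of at least 10 (added after the data were seen). The median fold was 3.33 at a −log10 q of at least 10, 3.10 when a match needed at least 0.5 of the brat peak's bases, and 2.81 without absent numbers. The housekeeping share was 8.49% with gene ends within 250 bp and 9.13% with absent numbers and weak peaks both left out. The share with ends of 2 or more genes was 43.7% by summits, 21.8% at 250 bp and 64.0% at 1 kb. The share within 200 bp was 72.1% by summits, 84.9% at 250 bp, 51.6% at 1 kb and 66.8% with both left out. These last 2 shares, and all differences from shared peaks, were recomputed after the data were seen. Over the alternatives, brat-only minus shared lay between 1.34 and 5.51 percentage points for housekeeping, 4.17 and 10.8 for ends of 2 or more genes, and 4.53 and 19.0 within 200 bp. The ratio of median folds lay between 0.564 and 0.673. Leaving out a replicate was not run, since each condition has 1 list. No paired analysis was possible because the lists hold no values per replicate. Gene-start, strand-pair and motif results and their alternatives were not run for lack of strand and sequence.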
